A study of Homo sapiens with 6 samples.

Results

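The subject is the later step of a differentiation series in WA09, an established line of human embryonic stem cells: day 21 smooth muscle cells (SMC) against day 4 nascent mesoderm cells positive for ISL1 (INM). It holds 4 of the study's 6 arrays, chosen by their titles: replicates 1 and 2 of WA09-SMC and replicates 1 and 2 of WA09-INM. Total RNA of each sample was measured on an Affymetrix expression array, with 1 array per sample. Per the labels, the stem cells (hESC) were kept in StemPro defined medium, and each derivative grew in that medium with BMP4 (50 ng/ml) and Wnt3a (25 ng/ml) for 4 days (INM) or 21 days (SMC). Both groups therefore shared the same additions and differed in the time spent in them. Each group is 2 arrays of this line, and stem cells kept for 21 days without the additions were not analysed here. Whether the 2 replicates of a group were separate cultures is not stated, so the tests measure a spread that may be technical. They also name no sorting step, and the RNA is that of the whole dish: fewer cells of a type and less RNA per cell cannot be told apart.

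Mesoderm that carries ISL1, a LIM homeodomain factor, is a source of heart, smooth muscle and other cells in the embryo. Smooth muscle cells contract through an actin and myosin apparatus whose genes are switched on by serum response factor (SRF) bound to CArG boxes, with myocardin as its coactivator. They also secrete collagens, elastic fibres and proteoglycans, and can shift between a contractile state and a secretory, dividing state in which the contractile genes are low. Wnt and BMP signals pattern early mesoderm, and their direct targets serve as readouts of the signal.

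Values are RMA log2 levels, so a difference of 1 is a doubling, and levels of different genes are not compared since each probe set has its own brightness. A gene rose or fell where limma's moderated test gave an adjusted p (Benjamini-Hochberg, over 18417 genes) under 0.05. The table holds no detection calls, so 5.10, the 75th percentile of olfactory receptor genes, served as background, and a fold is given only where both group means lie above it. The INM arrays agreed less well than the SMC arrays: their pooled replicate SD was 0.313 against 0.132, and 700 genes differed by over 1 log2 unit within the INM pair against 11 within the SMC pair. Across genes the correlation was 0.975 within INM and 0.995 within SMC. Each fit was repeated with 1 array left out, written as INM 1 for a fit without INM replicate 1 and so on. Of the calls, 519 of 1831 rises and 467 of 2043 falls held in all 6 such fits, and the fits without an SMC array, which rest on the wider INM pair, lost the most. A range in brackets after a count of calls is its lowest and highest value over these 6 fits. A list's median that turned in sign or moved by over 1.5 times when 1 INM array was left out is followed in square brackets by its value without INM 1 and then without INM 2. In every list the lowest count came without SMC 1 or SMC 2 and the highest without INM 1 or INM 2, also where further fits tied with them.

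The fixed marker genes gave a mixed check of the labels. ISL1, which names the day 4 cells, was at 9.46 and 9.55 on the INM arrays and 6.41 and 6.31 on the SMC arrays, a change of -3.14 (SE 0.13, adjusted p = 6.8e-05). HAND1, a bHLH factor of early lateral mesoderm, was at 12.32 and 12.42 on the INM arrays and 7.31 and 7.14 on the SMC arrays, a change of -5.14 (SE 0.12, adjusted p = 1.5e-05). The day 21 arrays lay far below the day 4 arrays for both genes. Of the other fixed mesoderm markers, MSX2 also fell, TBX20 rose, and GATA4 and SNAI2 lay higher by differences that did not pass the test. Their values are given below. Of the smooth muscle markers, ACTA2, the smooth muscle alpha actin, was at 11.97 and 10.85 on the INM arrays and 13.09 and 13.03 on the SMC arrays, and LMOD1, an actin nucleator of smooth muscle, was at 6.10 and 6.17 on the INM arrays and 7.50 and 7.46 on the SMC arrays. Both were higher on each SMC array than on either INM array, and each rose, by 1.65 (SE 0.33, adjusted p = 0.0157) and 1.34 (SE 0.11, adjusted p = 6.2e-04). DES, the intermediate filament desmin, rose by 0.68 (SE 0.17, adjusted p = 0.0380). TAGLN, CNN1, SMTN and MYLK, for transgelin, calponin, smoothelin and myosin light chain kinase, did not pass the test, with differences of 0.92, 0.46, -0.04 and -0.11. MYH11, the smooth muscle myosin heavy chain and the marker of mature contractile cells, stood at 5.71 and 5.82 on the INM arrays and 5.59 and 5.43 on the SMC arrays, close to the background level and with a difference of -0.25 (SE 0.14, adjusted p = 0.247). So 3 of the 8 fixed smooth muscle markers rose (over all genes 9.94% did), and MYH11 gave no detectable rise. Some of these calls ended with 1 array left out, at an adjusted p of up to 0.108 for ACTA2 (without SMC 1), and 0.225 for DES (without SMC 2). Leaving out INM 1 or INM 2 gave other sizes of change for ACTA2 (2.21 without INM 1, 1.09 without INM 2).

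Between day 4 and day 21, 1831 genes rose, which is 9.94% of the 18417 tested, and 2043 fell, which is 11.1%. Calls of over 1 log2 unit were close to even, with 670 rises (3.64%) and 704 falls (3.82%). Above 3 log2 units, 61 genes rose (0.331%) and 44 fell (0.239%). The median difference over all genes was -0.02. Of the rises, 284 started from an INM mean below background, so they were genes not detected above it at day 4, and 102 of the falls ended with an SMC mean below background. The 284 include genes whose SMC mean was below background as well, such as SNORD114-26 (4.73). Protein-coding genes gave 1693 rises and 1989 falls of 16899, while annotated miRNA precursors gave 22 and 1 of 173 and snoRNAs 32 and 4 of 175.

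**Figure D1:**
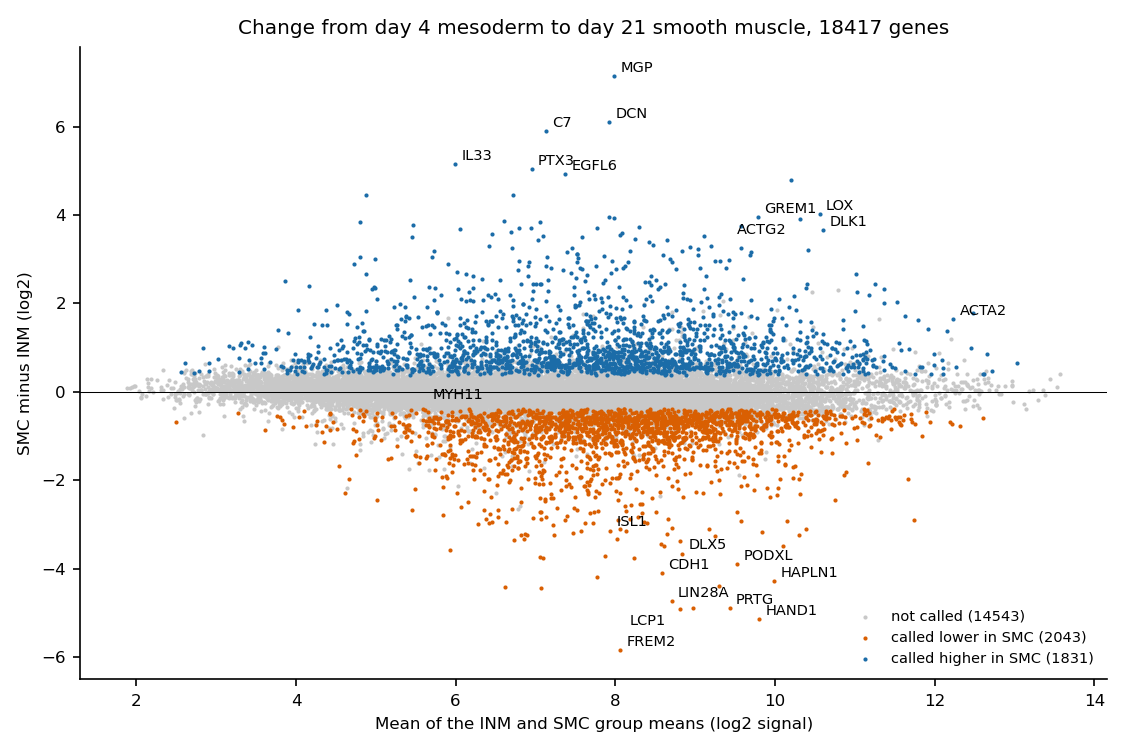
Each point is 1 of 18417 genes, with its mean log2 level over the INM and SMC arrays on the x axis and the log2 difference SMC minus INM on the y axis; coloured points are the 1831 genes that rose and the 2043 that fell. Large changes in both directions occur over the whole range above background, with MGP (7.15) and FREM2 (-5.85) at the ends.

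Secreted proteins of the matrix and of inflammation were among the largest rises. MGP, matrix Gla protein, an inhibitor of calcification made by vascular smooth muscle, was at 4.30 and 4.52 on the INM arrays and 11.52 and 11.60 on the SMC arrays. Its INM arrays lay below background and its SMC arrays near the top of the scale, a rise of 7.15 (SE 0.12, adjusted p = 7.7e-06). DCN, the proteoglycan decorin, was at 4.28 and 5.46 on the INM arrays and 10.97 and 10.99 on the SMC arrays and rose by 6.11 (SE 0.35, adjusted p = 1.7e-04). C7, a complement component, was at 3.97 and 4.39 on the INM arrays and 10.20 and 9.96 on the SMC arrays, a rise of 5.90 (SE 0.23, adjusted p = 6.2e-05). For each of these 3 genes the gap between the groups was several times the gap within either. IL33, an alarmin of the interleukin 1 family, was at 3.64 and 3.20 in INM and 8.64 and 8.50 in SMC (rise 5.15), and PTX3, a soluble pattern recognition protein, at 4.45 and 4.42 in INM and 9.39 and 9.56 in SMC (rise 5.04). EGFL6, a secreted protein with EGF repeats, was at 5.03 and 4.78 in INM and 9.94 and 9.74 in SMC, a rise of 4.93. IL33, PTX3 and EGFL6, too, started below background.

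Further large rises began from INM means above or below background. LOX, lysyl oxidase, which crosslinks collagen and elastin, was at 9.06 and 8.04 in INM and 12.56 and 12.58 in SMC, a 16.2-fold rise. GREM1, the BMP antagonist gremlin, was at 8.26 and 7.37 in INM and 11.71 and 11.83 in SMC, a 15.6-fold rise. TNFAIP6, a hyaluronan-binding protein induced by inflammatory cytokines, was at 6.46 and 5.43 in INM and 9.82 and 9.96 in SMC, a 15.4-fold rise. In each of these the lower SMC array stood well above the higher INM array. MFAP4, an elastic fibre protein, reached 6.25 and 9.36 in INM and 12.50 and 12.68 in SMC, and its INM arrays were the pair furthest from one another among these genes, so that its rise of 4.79 has an SE of 0.87. SERPINF1, a secreted serpin, rose by 3.75, MOXD1 by 3.93, and RAB27B, a GTPase of vesicle secretion, by 3.72. FAP, fibroblast activation protein, was at 5.34 and 4.03 in INM and 8.61 and 8.47 in SMC, a rise of 3.86 from an INM mean below background. AADAC, a microsomal deacetylase, rose by 4.46, CNTNAP5 by 4.45, CXCL10, a chemokine induced by interferon, by 3.84 and IL13RA2, a decoy receptor for interleukin 13, by 3.78, each also from an INM mean below background. Leaving out 1 array ended some calls here, with an adjusted p that reached 0.0919 for MFAP4 (without SMC 2).

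**Figure D2:**
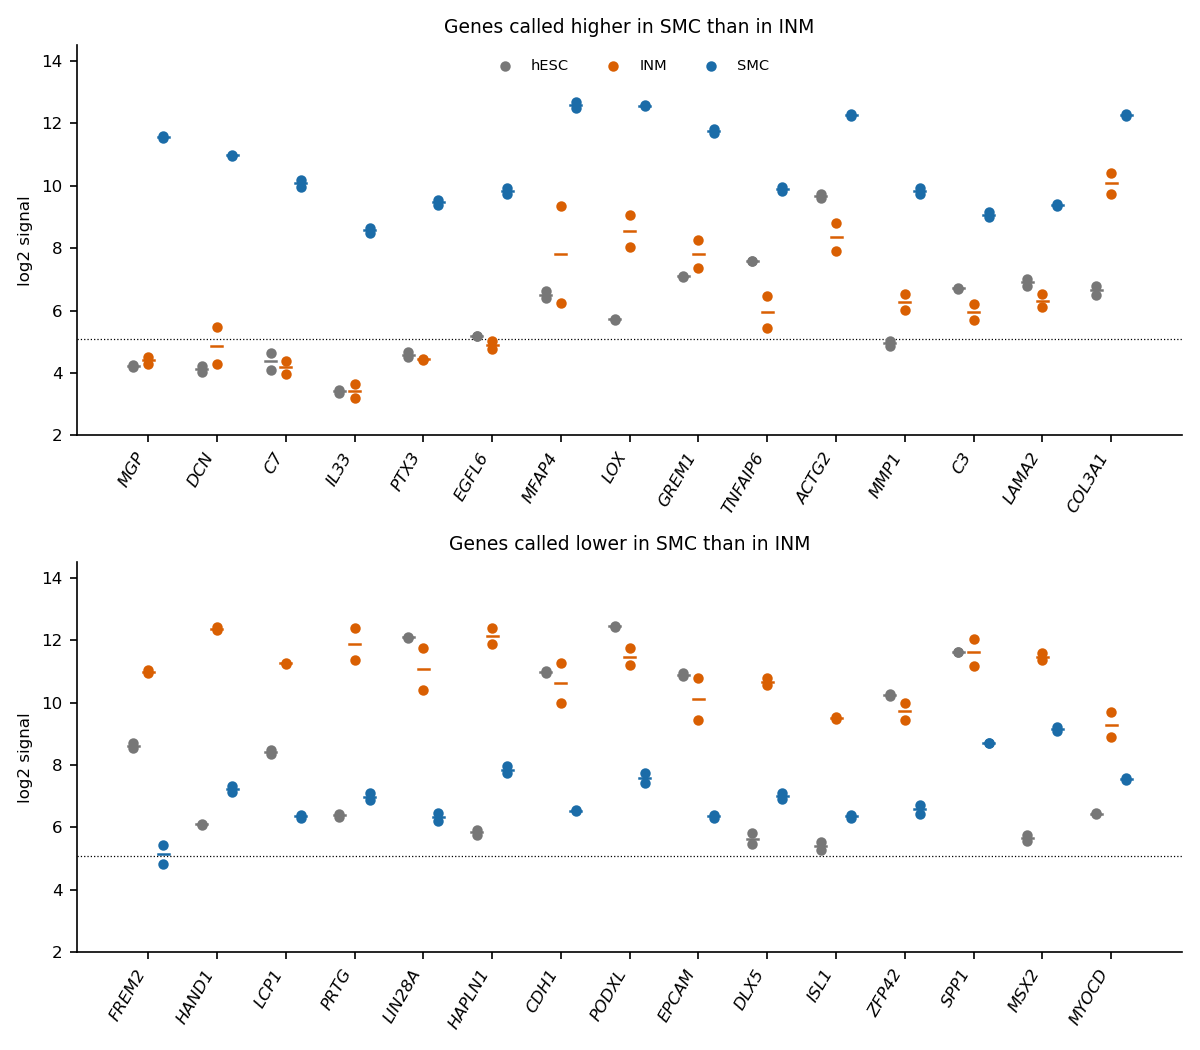
Picked genes that rose (top) and fell (bottom) in day 21 against day 4, with every array as a point. The log2 level is on the y axis, with hESC, INM and SMC in different colours and the dotted line at the background level of 5.10. The genes are not the full set of the largest changes. MGP and DCN lie far higher in SMC than in INM, and HAND1 and FREM2 far lower.

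Genes of embryonic epithelia, early mesoderm and stem cells were among the largest falls. FREM2, a basement membrane protein of embryonic epithelia, was at 11.03 and 10.96 on the INM arrays and 5.45 and 4.84 on the SMC arrays, a change of -5.85 (SE 0.20, adjusted p = 6.1e-05). HAND1 came next. LCP1, the actin-bundling L-plastin, was at 11.25 and 11.28 in INM and 6.40 and 6.30 in SMC, a change of -4.91 (SE 0.11, adjusted p = 1.5e-05), and PRTG, protogenin, a receptor of embryonic tissue, was at 11.37 and 12.39 in INM and 6.88 and 7.09 in SMC, a change of -4.89. The groups were separate by a wide margin in each. SLCO2A1, a prostaglandin transporter, fell by 4.89, with further falls for CAPN6, a calpain without protease activity (-4.39) and PLPPR5 (-4.18). HAPLN1, a link protein that ties hyaluronan to proteoglycans in embryonic matrix, was at 11.87 and 12.39 in INM and 7.96 and 7.73 in SMC, a 19.5-fold fall. EDNRB, the endothelin B receptor, was at 9.10 and 8.74 in INM and 5.17 and 5.21 in SMC, a 13.2-fold fall, and SFRP2, a secreted Wnt modulator, fell by 3.76. RASGRP1, PROM1 and PTPRZ1 fell, with changes of -4.45, -4.41 and -3.58 to SMC means below background. PRKCH, a protein kinase C, fell by 3.72, with further falls for ANXA3, an annexin (-3.50).

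Contractile genes changed unevenly. Of the contractile list, 7 of 26 measured genes rose (5 to 10) and 3 fell (0 to 5), with a median difference of 0.15 [0.02, 0.11] against -0.02 over all genes. The shares were 26.9% and 11.5%, against 9.94% and 11.1% over all genes. ACTG2, the enteric smooth muscle gamma actin, was at 8.81 and 7.90 on the INM arrays and 12.23 and 12.30 on the SMC arrays, a 15.0-fold rise and the largest of the list, with a change of 3.91 (SE 0.28, adjusted p = 3.4e-04). Its INM arrays lay below its stem cell mean of 9.68, and its SMC arrays above it. HSPB6, a small heat shock protein of smooth muscle, was at 7.65 and 6.84 in INM and 9.61 and 9.70 in SMC (rise 2.41). PLN, phospholamban, which restrains the calcium pump, was at 4.59 and 4.03 in INM and 6.31 and 6.29 in SMC (rise 1.99). In each the SMC pair lay above the INM pair. PGM5, an adhesion plaque protein, SYNPO2, an actin-binding Z-disc protein, and IRAG1, a cGMP kinase substrate, fell, with changes of -1.45, -1.08 and -0.54. TAGLN and CNN1, which were not called, were at 9.10 in hESC and 10.33 and 9.20 in INM and 10.59 and 10.77 in SMC for TAGLN, and 8.50 in hESC and 10.20 and 9.76 in INM and 10.39 and 10.49 in SMC for CNN1. For TAGLN, INM replicate 2 lay near the stem cell mean and INM replicate 1 near the SMC pair. In fits of 5 arrays the highest adjusted p was 0.0603 for PGM5, 0.205 for SYNPO2 and 0.197 for IRAG1 (without SMC 1). The change also depended on which INM array was kept for SYNPO2 (-1.58 without INM 1, -0.58 without INM 2).

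The transcription factors above these genes did not move the same way. MYOCD, myocardin itself, was at 8.89 and 9.69 on the INM arrays and 7.57 and 7.53 on the SMC arrays, against a stem cell mean of 6.44. The day 21 arrays were below the day 4 arrays, a change of -1.74 (SE 0.24, adjusted p = 0.00444). SRF was at 10.13 and 10.15 in INM and 9.82 and 9.83 in SMC, a difference of -0.32 (adjusted p = 0.0970). In the list of regulators, 1 of 23 measured genes rose (1 to 4) and 4 fell (1 to 7), with a median of -0.17 [-0.13, -0.09]. The shares were 4.35% and 17.4%, against 9.94% and 11.1% over all genes. TBX18, a factor of epicardial and mural cells, was the rise, at 7.16 and 6.76 in INM and 8.47 and 8.55 in SMC (1.55, SE 0.16, adjusted p = 0.00152). The falls were MYOCD, HEY2 (-2.20) and HEY1 (-1.53), which are Notch effectors, and FOXF2 (-0.58), a forkhead factor of visceral mesenchyme. Not every call held in the fits of 5 arrays, where the adjusted p rose to 0.0510 for MYOCD, 0.0618 for HEY2 and 0.243 for FOXF2 (without SMC 2).

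Of the contractile genes that rose, ACTG2 is the one whose promoter held the SRF motif, and it is printed for that reason. CArG boxes, which are CC, then A or T at each of 6 places, then GG, were searched on both strands in the 250 bases before each RefSeq start site (GRCh38.p14), in 6 of the 7 contractile genes that rose and in 14239 of the genes tested, the others having no entry. ACTG2 held 2 boxes, shown in capitals.
ACTG2: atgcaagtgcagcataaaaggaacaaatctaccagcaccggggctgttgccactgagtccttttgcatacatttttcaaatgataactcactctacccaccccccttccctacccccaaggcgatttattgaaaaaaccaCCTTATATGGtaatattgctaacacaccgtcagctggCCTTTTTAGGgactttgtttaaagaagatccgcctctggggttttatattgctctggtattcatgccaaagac
The stretch is chr2:73892758-73893007, + strand, upstream of the gene. Of the 6 promoters, 1 (16.7%) held a box, as did 2 of 20 for all contractile genes measured (the other being MYLK), against 166 of 14239 (1.17%). A box in this window is a match of letters and does not show binding, and boxes further away or in introns were not searched.

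**Figure D3:**
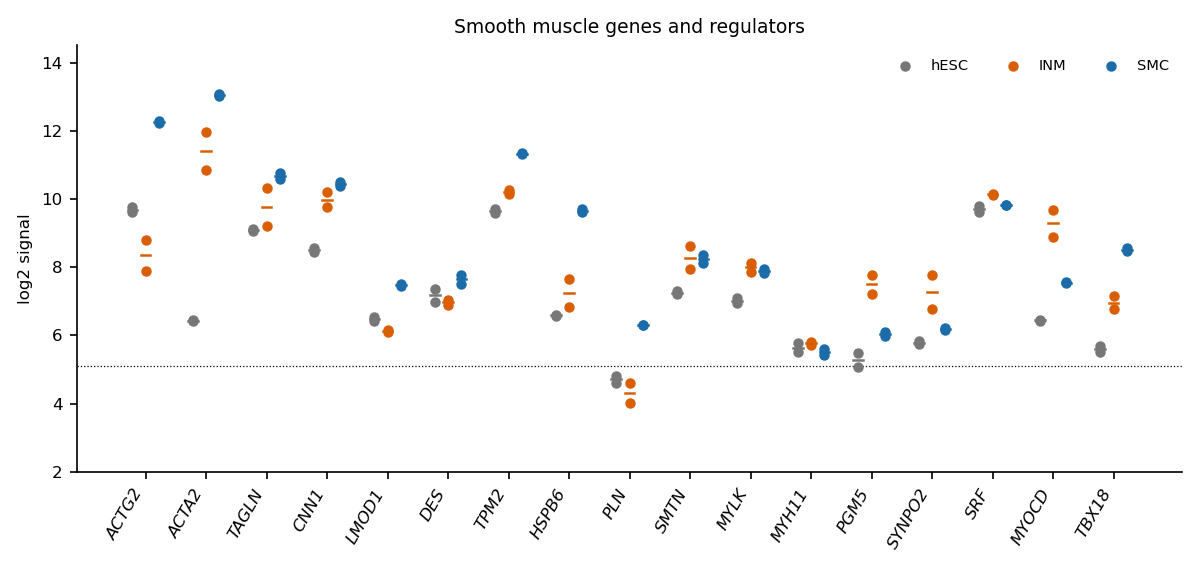
Log2 level of smooth muscle genes and their regulators on each array (points: hESC, INM and SMC, 2 arrays each; bars: group means; dotted line: background level 5.10). ACTG2 and ACTA2 are highest in SMC, TAGLN and CNN1 lie higher on the SMC than on the INM arrays by differences that did not pass the test (0.92 and 0.46), MYOCD is lower in SMC than in INM, and MYH11 lies near the dotted line in INM and SMC.

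Ion channels and receptors that set tone gave both rises and falls. For calcium handling, 3 of 29 measured genes rose (0 to 4) and 5 fell (2 to 9), with a median of -0.14 [-0.24, -0.13]. These shares, 10.3% and 17.2%, compare with 9.94% and 11.1% over all genes. CACNA2D1, an auxiliary subunit of voltage-gated calcium channels, rose by 1.19, while CACNA1C, the pore of the L-type channel of smooth muscle, was at 8.41 and 8.38 in INM and 7.07 and 7.20 in SMC, a change of -1.26 (SE 0.11, adjusted p = 8.4e-04). Of the inositol trisphosphate receptors, which release stored calcium, ITPR1 rose by 0.47 and ITPR3 fell by 1.96. CACNA1G, a T-type channel, rose by 0.55, and the pump ATP2B4 and the kinases ROCK1 and ROCK2, which sensitise contraction to calcium, fell, with changes of -0.74, -0.72 and -0.54. Of the potassium channels, 6 of 18 measured genes rose (3 to 6) and 4 fell (1 to 4), with a median of -0.03 [-0.02, 0.01]. KCNQ5 and KCNK1 rose by 1.96 and 1.51, and KCNMA1, the large conductance channel of smooth muscle, was at 8.49 and 8.31 in INM and 7.22 and 7.25 in SMC, a change of -1.16 (SE 0.12, adjusted p = 0.00132). KCNJ2, an inward rectifier, fell by 3.19. The calls lost with 1 array fewer had an adjusted p of up to 0.166 for ITPR1, 0.213 for CACNA1G, 0.113 for ROCK1, 0.173 for ROCK2 and 0.0704 for KCNJ2 (without SMC 2), and 0.101 for CACNA2D1 and 0.0886 for ATP2B4 (without SMC 1).

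Receptors for contracting and relaxing signals gave calls in both directions as well, and 9 of 30 measured genes rose (5 to 13) and 5 fell (3 to 8), with a median of 0.14 [0.03, 0.04]. CHRM2, the M2 muscarinic receptor of visceral smooth muscle, was at 5.20 and 5.44 on the INM arrays and 8.28 and 8.27 on the SMC arrays. It rose by 2.96 (SE 0.13, adjusted p = 7.1e-05), with both INM arrays near the stem cell mean of 5.20. PTGER2, a prostaglandin E receptor, was at 4.64 and 5.50 in INM and 8.33 and 8.33 in SMC (rise 3.26, from an INM mean below background), and BDKRB1, a bradykinin receptor, rose by 2.57. HTR2A, a serotonin receptor, rose by 1.70. PDE5A, which degrades cyclic GMP, was at 8.54 and 8.24 on the INM arrays and 5.45 and 5.62 on the SMC arrays, a 7.23-fold fall. PDE3A fell by 1.20, with further falls for the adrenergic receptor ADRA1B (-0.66) and the cGMP kinase PRKG1 (-0.62). EDNRB was the largest fall of the list. Members of the cyclic GMP pathway were found on both sides, with NPR1 and GUCY1B1 among the rises, which kept their calls in 6 and 4 of the 6 fits. Some of these calls ended with 1 array left out, at an adjusted p of up to 0.0676 for HTR2A and 0.194 for PRKG1 (without SMC 2), and 0.163 for ADRA1B (without SMC 1).

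Collagen genes rose more often than they fell. Of the fibrillar, network and other collagens, 11 of 28 measured genes rose (4 to 17) and 1 fell (0 to 3), with a median of 0.79. COL3A1, a fibrillar collagen of vessel walls, was at 10.42 and 9.75 on the INM arrays and 12.30 and 12.24 on the SMC arrays, a 4.54-fold rise (2.18, SE 0.23, adjusted p = 0.00152). COL1A1 was at 11.38 and 10.57 in INM and 12.63 and 12.59 in SMC, with a rise of 1.63 (SE 0.25, adjusted p = 0.00594). The INM arrays differed for both genes, and each lay below the SMC pair. COL15A1, a basement membrane zone collagen, was at 6.80 and 6.57 in INM and 9.54 and 9.70 in SMC (rise 2.94), and COL21A1 rose by 2.43. COL11A1 and COL6A3 rose by 1.16 and 1.14, and the single fall was COL9A2, a cartilage collagen (-0.46). Leaving out 1 array ended some calls here, with an adjusted p that reached 0.0587 for COL1A1 and 0.122 for COL11A1 (without SMC 1), and 0.194 for COL9A2 (without SMC 2).

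Elastic fibre genes gave a median of 0.81, and 12 of 22 measured genes rose (6 to 16) and 2 fell (0 to 3). After MFAP4 and LOX, the largest rises were EFEMP1, at 6.80 and 6.38 in INM and 9.80 and 9.75 in SMC (3.18, SE 0.16, adjusted p = 1.3e-04), and FBLN5, fibulin 5, which is needed to assemble elastic fibres, at 8.05 and 7.50 in INM and 10.66 and 10.80 in SMC (2.95, SE 0.19, adjusted p = 2.4e-04). Every SMC value of these was above every INM value by more than the spread within either pair. FBLN2 rose by 1.80. ELN, elastin itself, did not pass the test: it was at 7.64 and 7.62 on the INM arrays and 7.41 and 7.59 on the SMC arrays, a difference of -0.13 (SE 0.13, adjusted p = 0.559). MFAP5, a microfibril protein, and FBLN1 were the falls, with changes of -2.91 and -0.77. In fits of 5 arrays the highest adjusted p was 0.211 for MFAP5 and 0.0909 for FBLN1 (without SMC 1), and 0.0592 for FBLN2 (without SMC 2). Set against a single INM array, the change was MFAP5 (-1.45 without INM 1, -4.38 without INM 2).

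Among proteoglycans and their partners 10 of 25 measured genes rose (4 to 13) and 4 fell (2 to 5), with a median of 0.43. After decorin came SRPX2 (3.16), asporin (ASPN, 2.66) and osteoglycin (OGN, 1.79). The falls were HAPLN1, the cell surface proteoglycan GPC4 (-2.55), aggrecan (ACAN, -1.40) and PRELP (-0.81). Of other glycoproteins 6 of 24 measured genes rose (3 to 14) and 3 fell (3 to 4), with a median of 0.62 [0.73, 0.23], led after MGP by THBS2, a thrombospondin, at 6.62 and 6.61 in INM and 9.42 and 9.37 in SMC (2.78), and CCN3 (1.97). SPP1, osteopontin, was at 12.05 and 11.18 on the INM arrays and 8.69 and 8.69 on the SMC arrays, a 7.61-fold fall, and SPON1 and MATN3 fell, with changes of -2.39 and -2.14. Proteases and their inhibitors gave 10 rises (6 to 15) and 3 falls (1 to 8) among 27 measured (median 0.29 [0.76, -0.11]). MMP1, an interstitial collagenase, was at 6.03 and 6.54 in INM and 9.94 and 9.74 in SMC (rise 3.55), ADAM12 rose by 2.81 and the inhibitor TIMP1 was at 11.71 and 11.45 in INM and 13.33 and 13.41 in SMC (rise 1.79). ADAMTS2, the procollagen N-propeptidase, fell by 1.51. Not every call held in the fits of 5 arrays, where the adjusted p rose to 0.135 for OGN, 0.0813 for ACAN and 0.0657 for PRELP (without SMC 1). Leaving out INM 1 or INM 2 gave other sizes of change for OGN (1.16 without INM 1, 2.43 without INM 2).

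Receptors for this matrix gave both rises and falls. Of integrins and laminins, 5 of 24 measured genes rose (2 to 9) and 4 fell (2 to 11), with a median of -0.21 [0.12, -0.34]. The shares were 20.8% and 16.7%, against 9.94% and 11.1% over all genes. LAMA2 and LAMA4, the laminin alpha chains of muscle and vessel basement membranes, rose by 3.08 and 1.93, and LAMA1, the chain of the early embryo, fell by 2.27. LAMA2 was at 6.10 and 6.54 in INM and 9.37 and 9.43 in SMC and LAMA1 at 9.69 and 9.26 in INM and 7.14 and 7.26 in SMC, so the order of the groups was reversed between them. ITGA11, a collagen receptor of mesenchyme, rose by 1.91 and ITGB3 by 1.60. ITGA6, a laminin receptor, ITGA9 and ITGB8 fell, with changes of -2.24, -2.13 and -1.59. The calls lost with 1 array fewer had an adjusted p of up to 0.213 for ITGA11, 0.0576 for ITGB3, 0.0831 for ITGA6 and 0.106 for ITGB8 (without SMC 2). The change also depended on which INM array was kept for ITGA11 (2.86 without INM 1, 0.95 without INM 2).

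Inflammatory and innate immune genes changed almost only upward. Of the stromal cytokine list, 18 of 33 measured genes rose (10 to 25) and 0 fell (0 at an unadjusted p under 0.05), with a median of 0.72. CCL2, a monocyte chemokine, was at 8.42 and 7.87 on the INM arrays and 11.10 and 11.39 on the SMC arrays, an 8.60-fold rise (3.10, SE 0.20, adjusted p = 2.4e-04). IL1A, interleukin 1 alpha, was at 4.88 and 4.67 in INM and 8.07 and 8.06 in SMC (3.29, SE 0.17, adjusted p = 1.3e-04), and its receptor IL1R1 was at 6.13 and 6.83 in INM and 9.46 and 9.42 in SMC (2.96, SE 0.24, adjusted p = 5.5e-04). Both SMC arrays exceeded both INM arrays in each case. In the complement list 9 of 16 measured genes rose (8 to 12) and 1 fell (0 to 2), with a median of 1.09. C3, the central component, was at 5.69 and 6.21 on the INM arrays and 9.0 and 9.15 on the SMC arrays (3.12, SE 0.18, adjusted p = 1.7e-04). The proteases C1S and C1R rose by 2.84 and 2.79, MASP1 by 2.44 and CFI by 2.36, and C5 fell by 1.21. The blood cell markers gave 1 rise (0 to 2) and 1 fall (0 to 1) among 13 measured (median 0.03), and PTPRC, the pan-leukocyte marker, was below background on every array, at 3.29 and 3.65 in INM and 3.87 and 3.89 in SMC. Of the blood cell markers 7.69% rose and 7.69% fell, against 9.94% and 11.1% over all genes. Some of these calls ended with 1 array left out, at an adjusted p of up to 0.0764 for C5 (without SMC 2).

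Genes induced by interferon gave 11 rises (7 to 13) and 0 falls (0 to 1, 2 at an unadjusted p under 0.05) among 29 measured, with a median of 0.32. GBP2, a guanylate-binding protein, was at 4.88 and 4.46 in INM and 8.39 and 8.10 in SMC (3.58, SE 0.20, adjusted p = 1.6e-04) and IFITM1, a membrane protein that restricts viruses, at 8.02 and 9.62 in INM and 12.02 and 12.02 in SMC (3.20, SE 0.45, adjusted p = 0.00469). IFI6, IFITM3, GBP3 and IFITM2 rose by 2.10, 1.72, 1.70 and 1.52. Antigen presentation by class I molecules gave 6 rises (3 to 6) and 0 falls (0 at an unadjusted p under 0.05) among 10 measured (median 0.65). B2M, the light chain of every class I molecule, was at 8.53 and 8.74 on the INM arrays and 10.28 and 10.35 on the SMC arrays, a 3.21-fold rise, and the peptide transporter TAP1 was at 6.03 and 6.02 in INM and 7.60 and 7.72 in SMC, a 3.10-fold rise. For TAP1 the stem cell mean was 7.92, so that the day 4 arrays were the low ones of the series. Against the stem cells, the median of the class I list was -0.28 in INM and -0.05 in SMC. The median of the interferon list was -0.23 in INM and 0.07 in SMC. TAPBP and TAP2 rose by 1.15 and 0.77. Leaving out 1 array ended some calls here, with an adjusted p that reached 0.0507 for IFITM1 (without SMC 2), and 0.0965 for TAP2 (without SMC 1).

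Promoters of 3 of these genes are printed because the motifs of the matching pathways stood in them. The search covered the same 250 bases on both strands. The kappaB motif (bound by NF-kappaB) was found in 7 of 16 promoters of the cytokine genes that rose (43.8%), in 12 of the 29 cytokine genes measured (41.4%), and in 11.1% of the 14239 promoters. The core GAAANNGAAA of the interferon-stimulated response element was found in 5 of 8 interferon genes that rose (62.5%), 13 of 22 measured (59.1%), 4 of 6 antigen presentation genes that rose (66.7%), 5 of 9 measured (55.6%), and 2.57% of all. The lists were drawn up from genes known to answer to these pathways, and the shares among all members measured were near those among members that rose. Capitals mark the matches, and where matches overlap they run together.
PTX3: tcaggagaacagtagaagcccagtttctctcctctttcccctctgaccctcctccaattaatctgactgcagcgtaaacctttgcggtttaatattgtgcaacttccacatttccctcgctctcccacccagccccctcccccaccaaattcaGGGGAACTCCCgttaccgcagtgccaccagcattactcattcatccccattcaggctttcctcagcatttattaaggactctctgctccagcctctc
IFI6: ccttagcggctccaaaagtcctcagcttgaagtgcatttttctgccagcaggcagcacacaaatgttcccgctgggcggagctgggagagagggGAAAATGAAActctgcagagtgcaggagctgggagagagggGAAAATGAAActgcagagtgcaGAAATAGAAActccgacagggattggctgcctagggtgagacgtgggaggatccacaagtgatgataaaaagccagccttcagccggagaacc
B2M: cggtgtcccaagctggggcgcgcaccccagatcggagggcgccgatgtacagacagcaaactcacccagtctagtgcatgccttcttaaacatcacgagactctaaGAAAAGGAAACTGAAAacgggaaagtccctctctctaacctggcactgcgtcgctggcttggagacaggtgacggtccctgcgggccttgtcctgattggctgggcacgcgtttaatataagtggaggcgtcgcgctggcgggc
The stretches are chr3:157436600-157436849, + strand for PTX3, chr1:27672193-27672442, - strand for IFI6, and chr15:44711267-44711516, + strand for B2M, each upstream of the start site and printed 5′ to 3′ on the gene's strand. The PTX3 window held 2 overlapping kappaB matches, IFI6 held 3 cores and B2M 2.

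**Figure D4:**
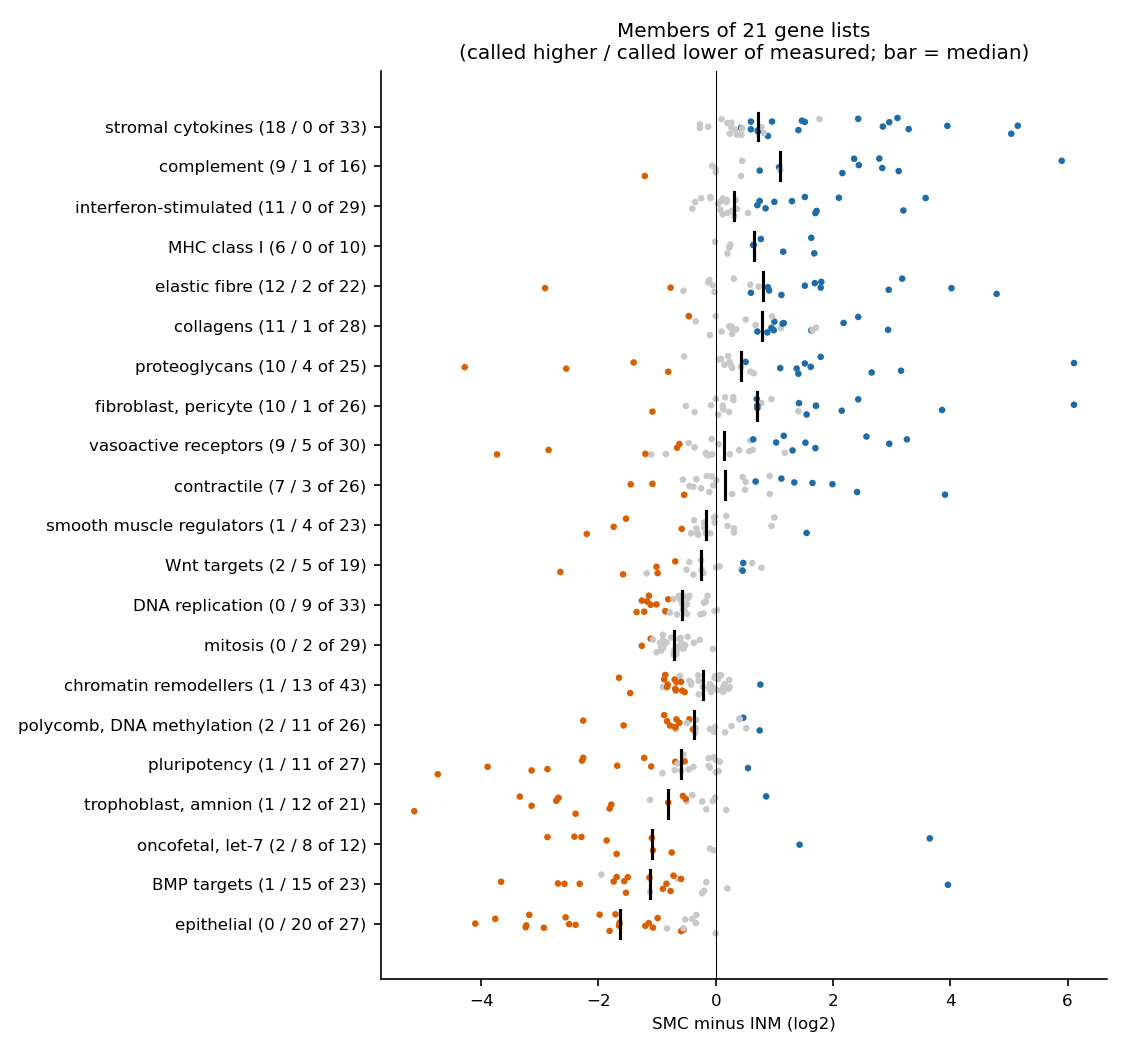
Log2 difference SMC minus INM for every measured member of selected gene lists (points, coloured where the gene rose or fell; bar: list median; the line at 0 marks no difference). Cytokine, complement, elastic fibre and collagen genes lie mostly above 0, with medians of 0.72, 1.09, 0.81 and 0.79. Epithelial genes and the list of BMP targets and modulators lie mostly below, with medians of -1.64 and -1.12.

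BMP4 was present in the medium of both groups, and most genes of a list of BMP targets and modulators fell. Of them, 1 of 23 measured genes rose (1 to 2) and 15 fell (7 to 19), with a median of -1.12, and the median was -0.89 without INM 1 and -1.03 without INM 2. MSX2, a homeobox target, was at 11.59 and 11.35 on the INM arrays and 9.08 and 9.22 on the SMC arrays, a 5.00-fold fall (-2.32, SE 0.14, adjusted p = 1.8e-04). ID1, an inhibitor of bHLH factors and a standard readout of SMAD signalling, was at 10.61 and 10.12 on the INM arrays and 8.82 and 8.79 on the SMC arrays, a 2.95-fold fall (-1.56, SE 0.17, adjusted p = 0.00182). DLX5 was at 10.78 and 10.55 in INM and 6.90 and 7.11 in SMC (change -3.66), GATA3 fell by 2.69, with further falls for DLX2 (-1.74) and the antagonist NOG (-2.58). MSX2, ID1 and DLX5 each had a clear gap between the groups. Stem cell means were 5.65 for MSX2, 9.42 for ID1 and 5.63 for DLX5. BMP4 itself fell by 1.85, and GREM1, which binds and blocks BMPs, was the member that rose. In fits of 5 arrays the highest adjusted p was 0.205 for DLX2 and 0.107 for NOG (without SMC 1), and 0.0919 for BMP4 (without SMC 2). Set against a single INM array, the change was DLX2 (-0.96 without INM 1, -2.51 without INM 2) and NOG (-1.68 without INM 1, -3.47 without INM 2).

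Wnt3a was likewise added to both. Of the Wnt target list, 2 of 19 measured genes rose (0 to 4) and 5 fell (3 to 9), with a median of -0.25 [-0.28, -0.15]. The shares were 10.5% and 26.3%, against 9.94% and 11.1% over all genes. RNF43, which removes Wnt receptors from the surface and is itself induced by Wnt, was at 7.92 and 8.14 on the INM arrays and 5.46 and 5.31 on the SMC arrays (-2.65, SE 0.13, adjusted p = 1.2e-04), and NKD1, ZNRF3, AXIN2 and NOTUM fell, with changes of -1.58, -1.01, -0.99 and -0.69. All 5 are feedback inhibitors of the pathway. MYC and WIF1 rose by 0.47 and 0.46, and LEF1, at 10.44 and 10.75 in INM and 10.37 and 10.33 in SMC, did not pass the test (-0.25). Among secreted antagonists DKK2 rose (0.96), as did WIF1, and SFRP2 and DACT1 (-0.96) fell, 2 and 2 of 12 measured. These shares, 16.7% each, compare with 9.94% and 11.1% over all genes. Not every call held in the fits of 5 arrays, where the adjusted p rose to 0.159 for AXIN2, 0.180 for WIF1 and 0.131 for DKK2 (without SMC 1), and 0.0928 for NOTUM, 0.196 for MYC and 0.0859 for DACT1 (without SMC 2). Leaving out INM 1 or INM 2 gave other sizes of change for AXIN2 (-1.33 without INM 1, -0.64 without INM 2).

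TGF-beta components gave 4 rises (3 to 11) and 1 fall (0 to 5) among 21 measured (median 0.14 [0.43, 0.07]). The signalling receptors TGFBR2, at 8.26 and 8.03 in INM and 9.70 and 9.75 in SMC, and TGFBR1 rose by 1.58 and 1.12, the coreceptor TGFBR3 by 2.77 and the ligand TGFB3 by 1.65, and SKIL, a repressor of SMADs, fell by 1.03. Of the Notch genes 1 of 19 measured genes rose and 3 fell (1 to 7), with a median of -0.27 [-0.14, -0.38]. Notch shares were thus 5.26% and 15.8%, against 9.94% and 11.1% over all genes. HES1 rose by 1.32, and the ligand JAG1 (-1.38), HEY1 and HEY2 fell. HEY1 was at 9.71 and 9.56 in INM and 8.06 and 8.15 in SMC. Targets of YAP, a coactivator that answers to stretch, gave 1 rise (0 to 5) and 6 falls (2 to 9) among 17 measured (median -0.23 [-0.31, -0.46]), with ANKRD1 lower (-2.44) and NT5E, a surface enzyme also used as a mesenchymal marker, higher by 2.81. The calls lost with 1 array fewer had an adjusted p of up to 0.0958 for TGFBR3, 0.233 for SKIL and 0.168 for NT5E (without SMC 2), and 0.181 for JAG1 (without SMC 1). The change also depended on which INM array was kept for SKIL (-0.61 without INM 1, -1.44 without INM 2), JAG1 (-0.77 without INM 1, -1.98 without INM 2) and NT5E (4.04 without INM 1, 1.57 without INM 2).

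Growth factors and receptors gave 7 rises (3 to 10) and 5 falls (2 to 10) among 29 measured (median -0.13 [-0.06, 0.09]). PDGFRA and PDGFRB, receptors of the mesenchyme and mural cells, rose by 1.71 (SE 0.42, adjusted p = 0.0335) and 0.71 (SE 0.14, adjusted p = 0.0145). PDGFRA was at 7.64 and 9.10 on the INM arrays and 10.06 and 10.10 on the SMC arrays, with the INM arrays apart. FGF7, a stromal growth factor for epithelia, rose by 2.09 and VEGFA by 1.58, while FGF18, FGF19, FGFR3 and MET fell, with changes of -1.81, -1.46, -1.31 and -1.27. KDR, a VEGF receptor used to mark mesoderm, had the same mean in both groups, and its INM arrays lay on either side of the SMC pair, at 9.09 and 11.47 in INM and 10.29 and 10.30 in SMC. Proteins that bind insulin-like growth factors or cut their binders gave 5 rises (2 to 8) and 1 fall (0 to 2) among 13 measured with a median of 0.86 that was 0.07 without INM 2. Of these, PAPPA, STC2 and IGFBP3 rose by 1.66, 2.38 and 0.86. Genes of the hypoxia response gave 7 rises (3 to 11) and 2 falls (1 to 4) among 16 measured (median 0.48 [0.22, 0.63]), with P4HA2, a collagen prolyl hydroxylase, higher by 1.75 and the transcription factor EPAS1 lower (-1.81). Retinoic acid genes gave 5 rises (2 to 7) and 3 falls (0 to 5) among 15 measured (median 0.18 [-0.01, 0.35]), with RDH10 and STRA6, which make and take up the precursor, higher by 1.83 and 1.50. Some of these calls ended with 1 array left out, at an adjusted p of up to 0.169 for PDGFRA, 0.122 for PDGFRB, 0.0603 for FGFR3 and 0.153 for PAPPA (without SMC 2), and 0.0586 for FGF18, 0.244 for FGF19 and 0.141 for IGFBP3 (without SMC 1). Set against a single INM array, the change was PDGFRA (0.97 without INM 1, 2.44 without INM 2), FGF19 (-2.13 without INM 1, -0.79 without INM 2) and PAPPA (2.24 without INM 1, 1.08 without INM 2).

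Factors of lateral mesoderm gave calls in both directions. Of the list, 3 of 26 measured genes rose (0 to 6) and 5 fell (4 to 9), with a median of -0.04 [-0.07, 0.02]. The shares of 11.5% and 19.2% stand beside 9.94% and 11.1% over all genes. After HAND1 and ISL1, GATA3 and TBX3 were lower, TBX3 (-1.47). MEIS2, TBX20 and SMARCD3 rose by 1.44, 1.43 and 0.76. GATA4 was at 8.74 and 10.34 on the INM arrays and 10.67 and 10.73 on the SMC arrays, a difference of 1.17 (SE 0.45, adjusted p = 0.123) that did not pass the test. HAND2, the paralogue of HAND1, was at 9.37 and 8.97 in INM and 9.63 and 9.77 in SMC, with no call (0.53). The HAND genes thus differed in their calls, with stem cell means of 6.10 and 6.21. HOX genes, which mark position along the body axis, gave 5 rises (3 to 7) and 1 fall (0 to 4) among 27 measured (median 0.12 [0.11, 0.19]). HOXB9 was at 7.51 and 8.16 in INM and 9.59 and 9.79 in SMC and HOXD10 at 7.35 and 7.15 in INM and 8.86 and 8.94 in SMC, rises of 1.85 and 1.65. HOXB13, HOXB7 and HOXC9 rose by 1.23, 0.91 and 0.58, and HOXB2, a more anterior gene of its cluster, fell by 0.80. Leaving out 1 array ended some calls here, with an adjusted p that reached 0.0903 for MEIS2, 0.188 for HOXB7 and 0.0860 for HOXB2 (without SMC 1), and 0.153 for TBX20, 0.0571 for SMARCD3 and 0.110 for HOXC9 (without SMC 2). Leaving out INM 1 or INM 2 gave other sizes of change for TBX20 (0.87 without INM 1, 1.98 without INM 2) and HOXB7 (0.56 without INM 1, 1.26 without INM 2).

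Most epithelial genes fell. Of the list, 0 of 27 measured genes rose (0 at an unadjusted p under 0.05) and 20 fell (12 to 22), with a median of -1.64, and its mean log2 level over members was 8.80 and 9.09 on the INM arrays and 7.27 and 7.28 on the SMC arrays. CDH1, E-cadherin, was at 9.98 and 11.28 on the INM arrays and 6.51 and 6.55 on the SMC arrays, a 17.2-fold fall (-4.10, SE 0.38, adjusted p = 9.3e-04). EPCAM was at 9.44 and 10.79 on the INM arrays and 6.41 and 6.30 on the SMC arrays, a 13.5-fold fall (-3.76, SE 0.39, adjusted p = 0.00147). Stem cell means were 10.99 and 10.90, near the value of INM replicate 2 for each gene. GRHL2, a transcription factor of epithelia, fell by 3.24, with further falls for the claudin CLDN6 (-3.23), CDH3, P-cadherin (-3.18) and the keratin KRT19 (-2.93). Among 48 keratins 5 fell and 0 rose (1 at an unadjusted p under 0.05). The share of keratins that fell was 10.4%, against 11.1% over all genes. Of mesenchymal markers 6 of 17 measured genes rose (1 to 9) and 1 fell (1 to 2), with a median of 0.29 [0.45, 0.23]. THY1 was at 9.51 and 8.86 in INM and 11.53 and 11.70 in SMC (2.43), ZEB1 rose by 1.64 and CDH2, N-cadherin, by 0.85, and SNAI1, an early repressor of E-cadherin, fell by 1.79. SNAI2 did not pass the test (0.31). In fits of 5 arrays the highest adjusted p was 0.150 for ZEB1 and 0.120 for CDH2 (without SMC 1). The change also depended on which INM array was kept for ZEB1 (2.28 without INM 1, 0.99 without INM 2).

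Trophoblast and amnion genes, which BMP4 can induce in stem cells, fell more often than they rose. In that list 1 of 21 measured genes rose (0 to 1) and 12 fell (7 to 13), with a median of -0.81, and the mean level over members was 7.99 and 7.71 on the INM arrays and 6.44 and 6.49 on the SMC arrays. VTCN1, a surface protein of trophoblast, was at 7.78 and 9.28 in INM and 5.25 and 5.13 in SMC (-3.34, SE 0.43, adjusted p = 0.00334), and TFAP2A was at 11.49 and 10.27 in INM and 8.12 and 8.19 in SMC (-2.72, SE 0.37, adjusted p = 0.00409). TFAP2C and KRT7 fell, with changes of -2.68 and -2.39. HAND1, ISL1 and GATA3 belong to this list and to the mesoderm list, so these arrays do not say in which cells their RNA fell. The part of such cells in the falls was not tested. Not every call held in the fits of 5 arrays, where the adjusted p rose to 0.141 for KRT7 (without SMC 1). Set against a single INM array, the change was KRT7 (-1.51 without INM 1, -3.28 without INM 2).

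Markers of fibroblasts and pericytes gave more rises than falls: of the list, 10 of 26 measured genes rose (5 to 15) and 1 fell (0 to 4), with a median of 0.71 [0.45, 0.58] and mean levels of 7.38 and 7.43 on the INM arrays and 8.36 and 8.41 on the SMC arrays. The share of rises was 38.5% against 9.94% over all genes, 15 members were not called, and the fall was BNC1. Besides DCN, FAP and THY1 the rises were CD248, at 8.30 and 8.13 in INM and 10.28 and 10.46 in SMC (2.15), PDGFRA, TBX18, PDPN, CD34 (0.71), PDGFRB and ABCC9. CD34 was at 6.54 and 5.99 in INM and 6.97 and 6.99 in SMC, and its call was lost in 4 of the 6 fits of 5 arrays, at an adjusted p of up to 0.197 (without SMC 2), with a change of 0.99 without INM 1 and 0.44 without INM 2. PDPN and ABCC9 kept theirs in 4 and 4 of the 6 fits. Smooth muscle shares several of these genes with fibroblasts, among them DCN and PDGFRB, and the share of each cell type in the SMC dish was not tested. Endothelial markers gave 5 rises (2 to 7) and 0 falls (0 to 2, 0 at an unadjusted p under 0.05) among 19 measured (median 0.19 [0.29, 0.22]): ERG, PECAM1, EMCN, FLT1 and ICAM2 rose by 1.35, 1.24, 1.19, 0.74 and 0.53. Of the defining genes, CDH5 was at 6.66 and 5.90 in INM and 6.77 and 7.01 in SMC, and VWF at 5.45 and 5.35 in INM and 5.30 and 5.46 in SMC, and neither passed the test. PECAM1 was at 5.66 and 5.32 in INM and 6.88 and 6.57 in SMC, a small rise beside those of the matrix genes. The calls lost with 1 array fewer had an adjusted p of up to 0.0504 for PECAM1 and 0.0742 for FLT1 (without SMC 1), and 0.193 for ICAM2 (without SMC 2).

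Heart muscle genes gave 2 rises (1 to 3) and 3 falls (1 to 7) among 19 measured (median -0.19 [-0.11, -0.08]). These shares, 10.5% and 15.8%, compare with 9.94% and 11.1% over all genes. ACTC1, the cardiac alpha actin, was at 13.36 and 13.04 on the INM arrays and 10.24 and 10.34 on the SMC arrays, a 7.54-fold fall (-2.91, SE 0.15, adjusted p = 1.2e-04), with a stem cell mean of 10.68. It therefore moved opposite to ACTG2 and ACTA2. MYL7 and TNNC1 fell, with changes of -1.02 and -0.65, and MYL3 rose by 0.79. Skeletal muscle genes gave 0 rises (0 to 1, 1 at an unadjusted p under 0.05) and 2 falls (0 to 4) among 16 measured, neural genes 0 rises (0 to 1, 0 at an unadjusted p under 0.05) and 3 falls (1 to 5) among 16 measured and cartilage and bone genes 1 rise (1 to 3) and 4 falls (3 to 7) among 19 measured, with medians of -0.06 [-0.14, -0.01], -0.19 and -0.09. The shares that fell were 12.5%, 18.8% and 21.1% in these lists, against 11.1% over all genes. The shares that rose were 0%, 0% and 5.26%, against 9.94%. Among the members of these lists, MAP2, a neuronal microtubule protein, fell by 2.37 and ALPL, alkaline phosphatase, had a change of -2.0. MYOD1 and VWF, defining genes of skeletal muscle and endothelium, lay at or near background on all INM and SMC arrays. Some of these calls ended with 1 array left out, at an adjusted p of up to 0.0689 for MYL7 and 0.217 for TNNC1 (without SMC 1), and 0.137 for MYL3 (without SMC 2).

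Among stem cell genes falls outnumbered rises. Of the pluripotency list, 1 of 27 measured genes rose (0 to 1) and 11 fell (9 to 15), with a median of -0.59, and the other 15 were not called. GAL was the rise (0.55), with a call that held in 2 of the 6 fits of 5 arrays. LIN28A, which blocks the maturation of let-7 miRNAs, was at 10.39 and 11.76 on the INM arrays and 6.46 and 6.21 on the SMC arrays, a 26.6-fold fall (-4.74, SE 0.40, adjusted p = 6.6e-04). Its paralogue LIN28B was at 9.27 and 9.97 on the INM arrays and 7.02 and 6.48 on the SMC arrays, a 7.32-fold fall (-2.87, SE 0.27, adjusted p = 0.00110). Stem cell means were 12.09 and 8.94, and both genes were lowest on the SMC arrays. PODXL, a surface sialomucin, was at 11.76 and 11.19 in INM and 7.43 and 7.73 in SMC (change -3.89), ZFP42 fell by 3.14, with further falls for L1TD1 (-2.28) and DNMT3B (-2.26). SOX2 did not pass the test (-0.03). Against the stem cells, the median of the pluripotency list was -1.71 in INM and -2.98 in SMC, so the list already lay lower at day 4. Of oncofetal genes known as let-7 targets or partners, 2 of 12 measured genes rose (1 to 2) and 8 fell (4 to 8). The rises were DLK1 (3.65) and PLAGL1, both described below. The median was -1.08, with NR6A1, MYCN and ARID3B lower, with changes of -2.41, -2.29 and -1.86. Leaving out 1 array ended some calls here, with an adjusted p that reached 0.122 for NR6A1 (without SMC 1). Leaving out INM 1 or INM 2 gave other sizes of change for NR6A1 (-3.28 without INM 1, -1.54 without INM 2).

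Mature let-7 miRNAs, which repress many growth genes, share the seed that pairs with their targets. The array probes the precursor locus, so it says nothing on the mature form. The sequences of the let-7 members that rose are given to show that seed, in capitals (bases 2 to 8), from RefSeq on GRCh38.p14.
hsa-let-7a-5p: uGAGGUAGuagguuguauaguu
hsa-let-7f-5p: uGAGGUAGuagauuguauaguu
They lie at chr11:122146568-122146589 on the minus strand and chr9:94176353-94176374 on the plus strand, and MIRLET7F2 makes the same mature let-7f. MIRLET7A2 was at 3.84 and 3.56 on the INM arrays and 7.44 and 6.96 on the SMC arrays, a rise of 3.50 (SE 0.20, adjusted p = 1.7e-04) from an INM mean below background. Of 10 measured precursors with this seed, 3 rose.

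Of 174 measured miRNA precursors, 22 rose (10 to 31) and 1 fell (0 to 5), MIR30A (-0.47), with a median of 0.14. The share of rises was 12.6% against 9.94% over all genes, and of falls 0.575% against 11.1%. Olfactory receptor genes, which have no known role here and mostly lie near background, had a median of 0.15 with 13 rises among 360, so low signals lay slightly higher on the SMC arrays, and the part of this in the miRNA rises was not tested. Of the precursors, 79 had a level above background in INM or SMC. The rises printed are those of over 1 log2 unit and of clusters with more than 1 member called, grouped by seed. Sequences again have the seed in capitals.
hsa-miR-181a-5p: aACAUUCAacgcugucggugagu
hsa-miR-181b-5p: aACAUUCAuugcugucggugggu
hsa-miR-221-3p: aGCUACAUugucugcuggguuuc
hsa-miR-222-3p: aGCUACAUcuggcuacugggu
hsa-miR-125b-5p: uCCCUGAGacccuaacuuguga
hsa-miR-100-5p: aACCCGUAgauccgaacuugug
hsa-miR-218-5p: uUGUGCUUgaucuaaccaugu
hsa-miR-186-3p: gCCCAAAGgugaauuuuuuggg
hsa-miR-32-5p: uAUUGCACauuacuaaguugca
hsa-miR-503-5p: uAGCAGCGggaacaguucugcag
The miR-181 precursors MIR181A1 and MIR181B1 lie together at chr1:198859108-198859130 and chr1:198858925-198858947 (mature 5p arms), and 4 of 5 measured precursors with that seed rose. MIR221 and MIR222 share a seed and lie together at chrX:45746180-45746202 and chrX:45747036-45747056. Neighbours may come from a shared transcript and are not independent observations. In fits of 5 arrays the highest adjusted p was 0.175 for MIR30A (without SMC 2).

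MIR181B1 had the largest change of all precursors, at 5.65 and 4.62 on the INM arrays and 9.02 and 8.91 on the SMC arrays (3.83, SE 0.31, adjusted p = 6.0e-04), while MIR181A1, its neighbour, rose by 1.06. MIR221, known from smooth muscle as a promoter of growth, was at 4.94 and 3.89 in INM and 6.58 and 6.52 in SMC (2.14). MIR125B1 and MIR100, which lie near MIRLET7A2 on chromosome 11, rose by 1.08 and 0.99. The groups did not overlap in any of these. MIR218-1, which sits in the gene SLIT2, rose by 2.62, and SLIT2, a guidance ligand, by 2.09. MIR186, MIR32 and MIR503 rose by 2.33, 1.44 and 1.19. Not every call held in the fits of 5 arrays, where the adjusted p rose to 0.0546 for MIR221 and 0.0771 for SLIT2 (without SMC 1), and 0.0545 for MIR181A1 (without SMC 2).

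Small nucleolar RNAs, which guide the modification of ribosomal and spliceosomal RNA, gave 34 rises (7 to 47) and 7 falls (0 to 19) among 189 measured (median 0.11). These shares, 18.0% and 3.7%, compare with 9.94% and 11.1% over all genes. The median was below the 0.15 of olfactory receptor genes, and 140 of the 189 had a level above background in INM or SMC. The part of low signal in these rises was not tested. SNORA23 and SNORA14A rose by 2.02 and 1.47, and SNORA38B fell by 2.30. A part of the rises came from the imprinted interval between DLK1 and DIO3 on chromosome 14, where 6 of 27 measured genes rose. DLK1, a non-canonical Notch ligand of immature mesenchyme, was at 8.18 and 9.39 on the INM arrays and 12.40 and 12.47 on the SMC arrays, a 12.5-fold rise (3.65, SE 0.35, adjusted p = 0.00113). Of the SNORD113 and SNORD114 clusters 5 of 6 rose (median 0.89), with SNORD114-3 at 4.01 and 4.25 in INM and 7.40 and 7.23 in SMC and SNORD113-4 at 2.49 and 2.73 in INM and 5.49 and 4.74 in SMC, rises of 3.19 and 2.51 from below background. For the other called members, SNORD113-3, SNORD114-6 and SNORD114-26, both group means were below background, with SMC means of 4.02, 2.94 and 4.73, and their calls held in 2, 4 and 5 of the 6 fits of 5 arrays. In the same interval the 16 miRNA precursors had a median of 0.08 and no call by limma, and MEG3, a long noncoding RNA, was at 6.12 and 6.05 in INM and 6.32 and 6.17 in SMC, a difference of 0.16. Imprinted genes as a list gave 2 rises and 1 fall among 13 measured (median 0.16), with PLAGL1 higher by 1.43 and GRB10 lower (-0.68). The shares of imprinted genes were 15.4% and 7.69%, against 9.94% and 11.1% over all genes. The calls lost with 1 array fewer had an adjusted p of up to 0.0501 for SNORA23, 0.0898 for SNORA38B and 0.0836 for PLAGL1 (without SMC 2), and 0.152 for GRB10 (without SMC 1).

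DNA replication genes gave 0 rises (0 at an unadjusted p under 0.05) and 9 falls (1 to 30) among 33 measured, with a median of -0.57, and mitosis genes 0 rises (0 at an unadjusted p under 0.05) and 2 falls (0 to 29) among 29 measured, with a median of -0.71. These sizes rest on which INM array is used: the replication median was -0.98 without INM replicate 1 and -0.23 without INM replicate 2, and the mitosis median was -1.31 without INM replicate 1 and -0.22 without INM replicate 2. The share that fell was 27.3% for replication, above the 11.1% over all genes, and 6.9% for mitosis, below it. The mean level of the mitosis list was 8.77 and 9.87 on the INM arrays and 8.63 and 8.56 on the SMC arrays, so INM replicate 2 alone stood well above the SMC pair. MCM7, a subunit of the replicative helicase, was at 9.84 and 10.35 on the INM arrays and 8.71 and 8.77 on the SMC arrays (-1.35, SE 0.18, adjusted p = 0.00355), and MCM3 fell by 1.22, with further falls for CDC6, which loads that helicase (-1.14) and KIF23, a kinesin of cytokinesis (-1.26). MKI67, the proliferation antigen, was at 9.25 and 10.64 on the INM arrays and 8.90 and 8.98 on the SMC arrays, a difference of -1.01 (SE 0.40, adjusted p = 0.127). Of p53 and senescence genes 4 of 18 measured genes rose (0 to 7) and 0 fell (0 to 3, 2 at an unadjusted p under 0.05). The median was 0.17 [0.20, 0.09], with CDKN1A, the p21 inhibitor, at 6.78 and 6.29 in INM and 7.34 and 7.59 in SMC (0.93, SE 0.19, adjusted p = 0.0182). Some of these calls ended with 1 array left out, at an adjusted p of up to 0.138 for MCM3, 0.177 for CDC6 and 0.139 for CDKN1A (without SMC 2), and 0.122 for KIF23 (without SMC 1). The change also depended on which INM array was kept for MCM3 (-1.66 without INM 1, -0.77 without INM 2) and CDC6 (-1.61 without INM 1, -0.68 without INM 2).

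Chromatin regulators gave more falls than rises. ATP-dependent remodellers gave 1 rise (0 to 1) and 13 falls (2 to 19) among 43 measured (median -0.22). CHD7 was at 9.69 and 10.07 on the INM arrays and 8.26 and 8.20 on the SMC arrays (-1.65, SE 0.15, adjusted p = 9.7e-04), ARID2, a subunit of the PBAF complex, fell by 1.46, with further falls for SMARCA5, the motor of ISWI complexes that space nucleosomes (-0.86). The rise was SMARCD3, the BAF subunit of heart and muscle (0.76). Polycomb and DNA methylation genes gave 2 rises (0 to 3) and 11 falls (2 to 14) among 26 measured (median -0.37). After DNMT3B the largest fall was JARID2, a cofactor of PRC2, at 9.99 and 10.08 in INM and 8.47 and 8.46 in SMC (-1.57), with EZH2, its methyltransferase, and TET1 lower, with changes of -0.83 and -0.88. Histone chaperones gave 0 rises (0 to 3, 1 at an unadjusted p under 0.05) and 5 falls (0 to 15) among 29 measured (median -0.28 [-0.41, -0.14]), among them CHAF1A and CHAF1B, which place histones behind the replication fork (-0.82 and -0.90). Of the chaperones 17.2% fell, against 11.1% over all genes. The histone variants MACROH2A2 and MACROH2A1 fell, with changes of -1.47 and -0.54 and H2AJ rose by 0.56, of 8 measured. The remodeller median was -0.37 without INM replicate 1 and -0.12 without INM replicate 2, and whether the cell cycle difference between the INM arrays plays a part was not tested. Leaving out 1 array ended some calls here, with an adjusted p that reached 0.0975 for SMARCA5, 0.106 for EZH2, 0.178 for TET1, 0.20 for CHAF1B and 0.122 for MACROH2A1 (without SMC 2), and 0.220 for CHAF1A and 0.183 for H2AJ (without SMC 1). Set against a single INM array, the change was TET1 (-1.19 without INM 1, -0.58 without INM 2), CHAF1A (-1.15 without INM 1, -0.49 without INM 2) and CHAF1B (-1.29 without INM 1, -0.52 without INM 2).

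**Figure D5:**
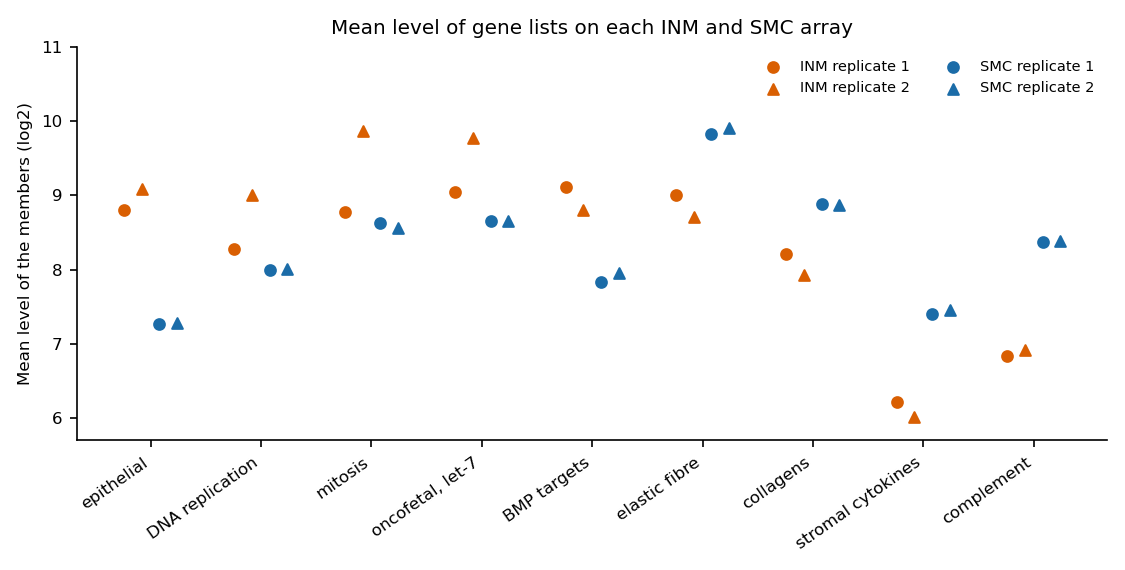
Mean log2 level over the measured members of selected gene lists on each INM and SMC array (circles: replicate 1, triangles: replicate 2, INM and SMC in different colours). The SMC replicates lie close together in every list shown. The INM replicates are apart for replication, mitosis and oncofetal genes, with replicate 2 the higher. Smaller gaps occur in other lists, with replicate 1 the higher for BMP, elastic fibre and collagen genes and replicate 2 for epithelial genes.

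Zinc finger genes of the ZNF series gave 14 rises (2 to 26) and 74 falls (21 to 94) among 439 measured (median -0.14), a share of falls of 16.9% against 11.1% over all genes. ZNF611 and ZNF845 fell, with changes of -2.18 and -2.02 and ZNF25 rose by 2.18. Guidance genes, named for axons but active in vessels, gave 3 rises (1 to 5) and 11 falls (4 to 19) among 32 measured (median -0.29 [-0.30, -0.55]), with SEMA6A at 11.97 and 11.72 in INM and 8.29 and 8.43 in SMC (-3.48), EFNB2, the arterial ephrin, lower (-1.95) and EPHA3 higher by 2.55. Protocadherins gave 6 rises and 3 falls among 40 measured (median 0.15 [0.35, -0.05]), with PCDH10 higher by 2.34. The shares of protocadherins were 15.0% and 7.5%, against 9.94% and 11.1% over all genes. In fits of 5 arrays the highest adjusted p was 0.0697 for PCDH10 (without SMC 2).

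Metabolic lists differed in how many of their genes were called. Oxidative phosphorylation gave 5 rises (0 to 8) and 1 fall (0 to 2) among 76 measured (median 0.04 [0.02, 0.09]), ribosomal proteins 6 rises (0 to 11) and 0 falls (0 to 3, 3 at an unadjusted p under 0.05) among 64 measured (median 0.10) and cholesterol synthesis 1 rise (0 to 5) and 1 fall (0 to 8) among 18 measured. The shares that rose were 6.58%, 9.38% and 5.56% in these 3 lists and the shares that fell 1.32%, 0% and 5.56%, each below the 9.94% and 11.1% over all genes. Glycolysis gave 4 rises (1 to 8) and 3 falls (1 to 5) among 20 measured (median 0.21 [0.11, 0.27]): the glucose transporters SLC2A3 and SLC2A1 fell, with changes of -1.98 and -1.02, and ALDOC and ENO2 rose by 1.53 and 0.86. SLC2A3 was at 12.38 and 12.93 in INM and 10.77 and 10.59 in SMC. In amino acid metabolism 6 of 18 measured genes rose (1 to 7) and 1 fell (1 to 5), with a median of 0.13. TDO2, which opens the tryptophan ring, was at 7.34 and 6.76 on the INM arrays and 10.22 and 10.08 on the SMC arrays, an 8.58-fold rise, and SLC7A11, the cystine transporter, and ASNS rose by 1.37 and 1.26. Histone genes of the replication clusters gave 4 rises (0 to 17) and 3 falls (0 to 14) among 57 measured, streak genes 0 rises (0 to 1, 0 at an unadjusted p under 0.05) and 3 falls (1 to 8) among 20 measured and endoderm genes 1 rise (1 to 3) and 1 fall (1 to 2) among 12 measured. In these lists the shares that rose were 7.02%, 0% and 8.33%, against 9.94% over all genes. The shares that fell were 5.26%, 15.0% and 8.33%, against 11.1%. Not every call held in the fits of 5 arrays, where the adjusted p rose to 0.0576 for SLC2A1, 0.169 for ENO2, 0.135 for SLC7A11 and 0.0675 for ASNS (without SMC 1). Leaving out INM 1 or INM 2 gave other sizes of change for ENO2 (0.54 without INM 1, 1.17 without INM 2) and SLC7A11 (1.87 without INM 1, 0.87 without INM 2).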

How the data were processed

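RNA of 6 samples of WA09 was measured on Affymetrix arrays, 2 per group. The deposited table holds log2 values that the authors made with RMA, which the submitters' processing notes name beside limma without versions. The settings of RMA and the build behind the array are not given in the sources used. Values ran from 1.36 to 14.1, with array medians of 6.46 to 6.68. Of 33297 probe sets, 19460 carried 1 gene symbol in the platform's table, 1754 several, and 12083 had none here. The Entrez identifier led to a current RefSeq symbol (GRCh38.p14) for 19429 of them. The brightest probe set stood for a gene, which gave 18417 genes, and 1 gene (PDPK1) had probe sets called in opposite directions.

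Without further normalization or filter, limma 3.58.1 (lmFit, then eBayes, in R version 4.3.3) was run on all 6 arrays with a mean for each of the 3 groups, which left 3 residual and 3.56 prior degrees of freedom. Calls were made at a two-sided p under 0.05 after Benjamini-Hochberg adjustment over all genes. With 2 arrays against 2, an exact permutation test cannot go below a p of 0.333. The number of arrays limits the precision.

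Named genes were the 20 largest rises and falls among called genes whose arrays did not overlap, a fixed list of markers, the members of each gene list with the largest called changes (up to 6, or all behind a count of 5 or fewer), and the largest changes of miRNA precursors. A few uncalled genes (HAND2, CDH5, VWF, PTPRC, MYOD1, MEG3) were added after their values were seen. The comparison, the lists and the markers were chosen with earlier results of these data known, and the kappaB and interferon motif searches were added after the values were seen. Alternatives were the INM and SMC arrays alone, quantile normalization, median centring, a filter on low signal, the mean of probe sets, a trended robust prior, group array weights, a replicate block and leaving out each array.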

Additional observations from a re-analysis of the deposited data

How the results depend on the processing

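Genes that rose numbered 1831 and genes that fell 2043. With the INM and SMC arrays alone these were 1252 and 1289, and leaving out each array in turn gave 571 to 2628 rises and 563 to 3515 falls, with the lowest of each without SMC replicate 2 and the highest without INM replicate 1. Without SMC replicate 1 they were 627 and 565. With 1 array of a group left, that array is assumed to vary like the other groups. Without an hESC array the remaining one adds no spread, so the counts equal those of the 4 arrays alone. Quantile normalization (1739 and 2193), median centring (1587 and 2398), the low-signal filter (1784 and 2130), the mean of probe sets (1828 and 2043), the trended robust prior (1847 and 2136) and group array weights (1570 and 1816) stayed within 1.5 times. A fit with the replicate block gave 1604 and 1788. No pairing by replicate number was seen: the correlation of replicate 1 minus replicate 2 across genes was -0.067 between INM and SMC. With 1 such difference per group this cannot exclude a shared day or batch, and the labels name none. KDR, which was not called, was at -1.18 without INM replicate 1 and 1.20 without INM replicate 2, called in opposite directions. Of 364 named genes called, 82 lost their call with the 4 arrays alone or without either hESC array, 174 without SMC replicate 1, 176 without SMC replicate 2, and between 0 and 25 under each other setting. The cause of these losses was not tested. Depth is not defined for arrays, and genes near the background level of 5.10 have understated changes.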

Other observations

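The INM arrays held the widest gaps between replicates, and some lay in genes with a known role. CDKN2A, which encodes p16, was at 9.94 and 7.69 in INM and 10.58 and 10.46 in SMC, and CDKN2B, its neighbour, at 10.23 and 8.05 in INM and 9.65 and 9.61 in SMC. Neither was called (changes of 1.70 and 0.49, with an adjusted p of 0.110 and 0.626 by limma), and these genes were picked after their values were seen. CSPG4, a pericyte marker, was at 8.62 and 7.21 in INM and 7.34 and 7.47 in SMC, so INM replicate 2 matched the SMC pair and INM replicate 1 lay above it. The 12083 probe sets that were unnamed here had a median difference of 0.15 between SMC and INM, equal to the 0.15 of olfactory receptor genes and above the -0.02 of all named genes.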
